A study of Mus musculus with 12 samples.

Results

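Programmed cell death through the mitochondrion is set by the Bcl2 family, and 10 of its genes are described here out of 23420 in the deposited table: the survival genes Bcl2, Bcl2l1 and Mcl1, the pore formers Bax and Bak1, and the BH3-only genes Bad, Bid, Bcl2l11, Bbc3 and Pmaip1. They were chosen by name, and all 10 have a row in the table. RNA of 100 sorted mouse fetal liver cells per tube was measured in 12 libraries, 3 for each of 4 groups, to compare wild type and knockout in 2 cell types. All cells were lineage-negative and c-Kit+, and were sorted by flow cytometry as carrying (PIR+) or lacking (PIR-) the paired immunoglobulin-like receptor. The groups are PIR+ wt, PIR- wt, PIR+ KO and PIR- KO.

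The labels name no knocked-out gene, strain, allele or Cre driver, so the target was not checked and the KO groups are described by their label alone. Whether the 3 libraries of a group came from separate embryos is not given either, so the p-values reflect sample-to-sample spread alone, which may be technical. Groups follow the titles. The markers field gives IL7Ra+ for all 12 libraries, while the series title gives IL7R- for PIR- cells, and its PIR sign differs from the title in 6 of 12 libraries. The source name gives embryonic day E12.5 or E14.5 and follows the sign of the markers field, so stage cannot be told apart from that field, and the series title gives E12.5 only. The receptor messages follow the titles: Pira2 was 9.3 to 35.7 in the 6 PIR+ libraries, and Pira1, Pira2 and Lilrb3 were at 0 in the 6 PIR- libraries. Kit was 18.6 to 56.3 and Il7r 9.7 to 24.4 over the 12 libraries.

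In this family the survival proteins hold the pore formers and the BH3-only proteins in check. When BH3-only proteins are made or activated they occupy the survival proteins, or engage the pore formers directly, and Bax and Bak1 then open the outer mitochondrial membrane. Cytochrome c leaves through that opening and starts the caspases. In blood formation, Mcl1 is known for keeping stem cells and lymphoid progenitors alive, Bcl2l1 (whose main product is Bcl-xL) for keeping maturing erythroid cells and immature lymphocytes alive, and interleukin-7 for raising survival proteins of the family in early lymphocytes.

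Values are molecule counts that the authors normalized, and 1 molecule was worth an estimated 0.49 to 0.775 in a library. Summed values were 155374.2 to 284648.3 per library, higher in PIR+ (203135 to 284648.3) than in most PIR- libraries (155374.2 to 222699.7), and correspond to 208195 to 442533 molecules. Each message is counted once at its poly(A) end, so levels of different genes were compared without a length correction. The median of all 4542 tested genes was 0.51 higher on the log2 scale in PIR+ wt than in PIR- wt, and 0.39 higher in KO. Whether this shift reflects RNA content per cell or the authors' normalization was not tested. The tests were therefore repeated after median-of-ratios scaling, which sets that median near 0. Such scaling would also remove a real difference in RNA per cell. Hba-a1, an alpha globin of erythroid cells, was 359.6 to 604.1 in 5 libraries (PIR+ wt 3, PIR- wt 2 and 3, PIR+ KO 1 and PIR- KO 1) and 8.2 to 62.6 in the other 7. Summed markers were 0 to 4.8 for macrophages (8 of 9 listed genes in the table), 0 to 15.1 for megakaryocytes and platelets (5 of 5), 5.7 to 61 for hepatoblasts (7 of 7), 0 to 23.3 for endothelium (5 of 5) and 0 to 9.1 for mast cells (4 of 4).

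Mcl1 was the most abundant of the 10 messages and Bcl2 the least abundant survival message. Over the 12 libraries the median level was 31.9 for Mcl1, 16.1 for Bcl2l1, 11.7 for Bid, 8.8 for Bad, 7.25 for Bak1, 6.9 for Bcl2l11, 5.1 for Bax and 1.6 for Bcl2, and it was 0.5 for Pmaip1 and 0 for Bbc3. The ranges of neighbours in this order overlapped throughout, so it is an order of medians alone. The test across genes was limma on log2(value + 1), for genes at 10 or more in at least 3 libraries, and 4 of the 10 members passed that filter: Bcl2l1, Mcl1, Bad and Bid. Bcl2l1 reached 10 in 7 libraries, all 6 PIR- and PIR+ KO 3, and Bad in 5 libraries, all PIR+. Counts over these 4 are thus not counts over the family.

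**Figure D1:**
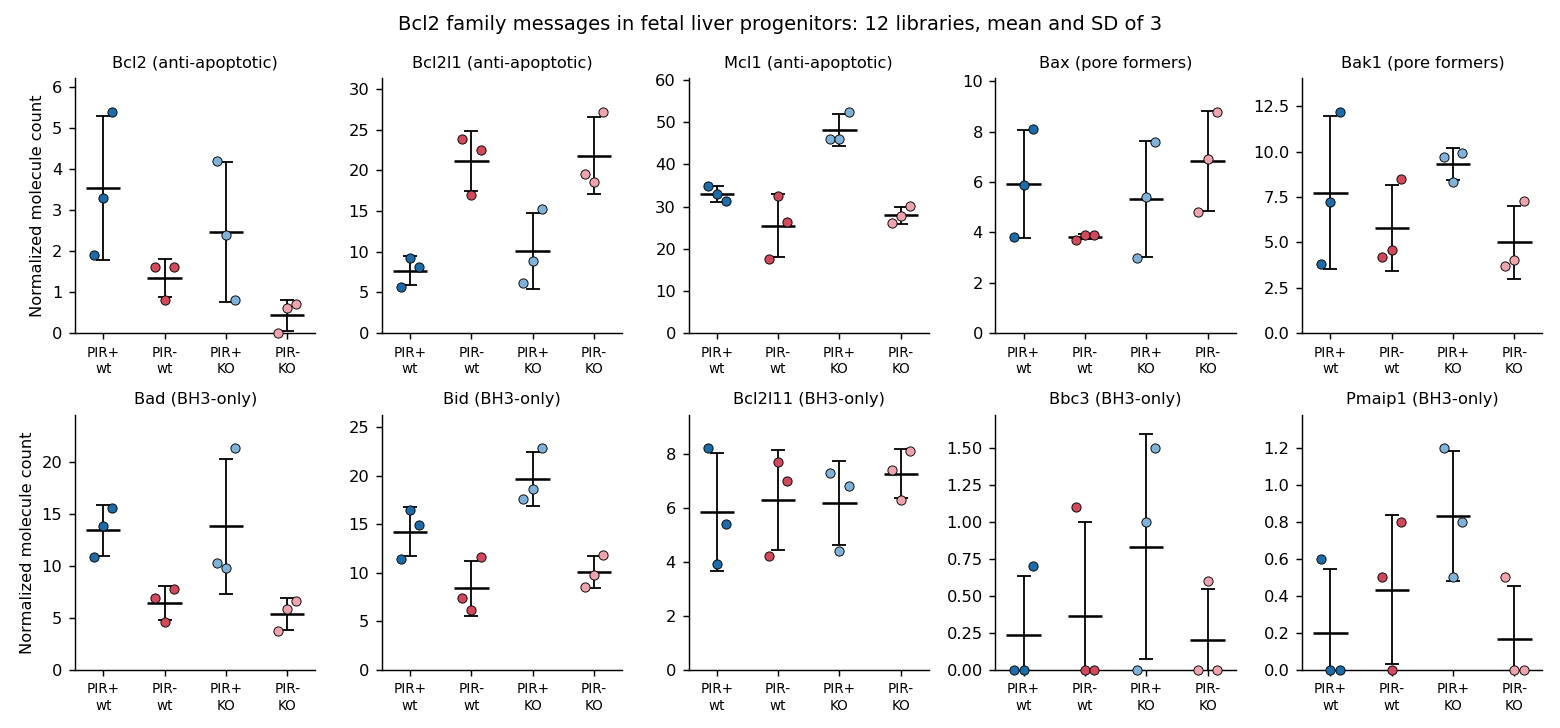
Normalized molecule count (vertical axis, linear, from 0) of each of the 10 genes in the 12 libraries, by group; points are libraries, and bars are the mean and SD of 3, with the SD cut off at 0. Bcl2l1 lies between 17.0 and 27.2 in PIR- libraries and between 5.7 and 15.2 in PIR+ libraries, while Bad lies between 3.7 and 7.8 in PIR- and between 9.8 and 21.3 in PIR+.

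Bcl2l1 (chr2:152780668-152831728, minus strand, GRCm38, GENCODE M21, as for the genes below) was higher in PIR- than in PIR+ cells of both genotypes. In wild type it was 5.7, 9.2 and 8.1 in the 3 PIR+ libraries and 23.9, 17.0 and 22.5 in the 3 PIR- libraries. In KO it was 6.1, 8.8 and 15.2 in PIR+ and 19.6, 18.5 and 27.2 in PIR-. Every PIR- library was above every PIR+ library, in each genotype and over both. Such a lack of overlap held for 52% of tested genes in wild type and 39.1% in KO. In bulk libraries such as these, fewer cells with the message and less message per cell cannot be told apart.

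On the log2 scale Bcl2l1 was lower in PIR+ wt by -1.36 ± 0.29 (SE, 95% interval -1.94 to -0.78, limma adjusted p = 9.82e-05, n = 3 each), a change opposite in sign to the median gene. Only 3.72% of tested genes were called lower in that comparison. In KO the difference was -1.11 ± 0.29 (adjusted p = 0.00229 by limma), where 2.97% of tested genes were called lower. Scaling made both differences larger in size, -1.84 (limma adjusted p = 1.58e-06) in wild type and -1.48 (adjusted p = 5.99e-05) in KO. Over both genotypes the 6 libraries of each subset did not overlap (exact two-sided permutation p = 0.00216, the smallest this test can give), which held for 20.1% of tested genes. In the authors' deposited table the p for PIR+ wt against PIR- wt was 1.22e-06.

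Globin-rich libraries are in all 4 groups, unequally, and the erythroid lineage is one in which Bcl2l1 is known to be used, so its level was read against them. Bcl2l1 was 8.1 and 6.1 in the 2 globin-rich PIR+ libraries and 5.7 to 15.2 in the other 4. It was 17.0, 22.5 and 19.6 in the 3 globin-rich PIR- libraries and 18.5 to 27.2 in the other 3. Whether erythroid cells contributed to the level of Bcl2l1 was not tested. The summed erythroid markers (11 of 13 in the table) ran from 29.8 to 894.9 in PIR+ wt, 172.4 to 1605.2 in PIR- wt, 31.6 to 1815 in PIR+ KO and 39.6 to 1365.5 in PIR- KO. Without the 5 globin-rich libraries the wild-type difference was -1.59, with PIR- wt 1 (E14.5) alone against PIR+ wt 1 and 2 (both E12.5). Subset and stage cannot be told apart in that wild-type comparison. The KO difference was then -0.90 (limma adjusted p = 0.0842), no longer called. In the 6 libraries where title and markers field give the same PIR sign, the KO difference was -0.53 (limma adjusted p = 0.314), with PIR+ KO 3, the highest PIR+ library, as the lone PIR+ KO library.

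Mcl1 (chr3:95658788-95663176, plus strand), a short-lived survival protein, was 34.9, 32.9 and 31.2 in PIR+ wt and 17.5, 32.5 and 26.4 in PIR- wt. It was 46.0, 46.0 and 52.5 in PIR+ KO and 26, 27.7 and 30.1 in PIR- KO. The wild-type groups overlapped, through PIR- wt 2, and the KO groups did not, which held for 39.1% of tested genes in KO. PIR+ KO was the highest group, 48.2 ± 3.75 (SD, n = 3) against 33.0 ± 1.85, 25.5 ± 7.54 and 27.9 ± 2.06 in PIR+ wt, PIR- wt and PIR- KO. The difference of the subsets was 0.40 ± 0.23 in wild type (limma adjusted p = 0.133) and 0.76 ± 0.23 in KO (adjusted p = 0.0074), on the deposited scale. After scaling they were -0.10 (limma adjusted p = 0.761) and 0.37 (adjusted p = 0.18), so the KO call rests on the deposited scale. It was also not called without the 5 globin-rich libraries (0.75, adjusted p = 0.0829 by limma).

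Bcl2 (chr1:106538178-106714274, minus strand), the founding survival gene of the family, was close to the detection limit. It was 1.9, 3.3 and 5.4 in PIR+ wt, 1.6, 0.8 and 1.6 in PIR- wt, 4.2, 2.4 and 0.8 in PIR+ KO, and 0, 0.6 and 0.7 in PIR- KO. These values stand for an estimated 37 molecules over the 12 libraries, 16, 6, 13 and 2 in the 4 groups in that order, where 3 molecules are worth 1.47 to 2.33. PIR+ libraries held more of it than PIR- libraries, 0.8 to 5.4 against 0 to 1.6, with overlap (exact two-sided permutation p = 0.013, 6 against 6). After scaling that test gave p = 0.0584 (exact permutation), with the subsets in the same order (0.79 on the log2 scale). When genes at 2 or more in at least 3 libraries were fitted, Bcl2 was called higher in PIR+ cells in the average over genotypes (1.04, limma adjusted p = 0.01), where 42.8% of genes were called in either direction. After scaling that fit gave 0.79 (limma adjusted p = 0.0808), no longer called.

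The pore formers, whose proteins open the outer membrane, were at low levels in all groups. Bax (chr7:45461697-45466898, minus strand) was 3.8, 5.9 and 8.1 in PIR+ wt, 3.7, 3.9 and 3.9 in PIR- wt, 3.0, 5.4 and 7.6 in PIR+ KO and 4.8, 6.9 and 8.8 in PIR- KO. The wild-type subsets overlapped, as did the KO subsets, and an exact two-sided permutation test did not separate PIR+ from PIR- (p = 0.801, 6 against 6). Bak1 (chr17:27019810-27029009, minus strand) was 3.8, 7.2 and 12.2 in PIR+ wt, 4.2, 4.6 and 8.5 in PIR- wt, 9.7, 8.3 and 9.9 in PIR+ KO and 3.7, 4.0 and 7.3 in PIR- KO. The KO subsets of Bak1 did not overlap, the wild-type subsets did, and the test over both genotypes missed the threshold (exact permutation p = 0.0758). After scaling that test gave p = 0.457 (exact permutation), with a log2 difference of 0.17. Bak1 did not pass the filter, and among the genes that did, 39.1% had no overlap between the KO subsets. Bax rests on an estimated 103 molecules over the 12 libraries and Bak1 on 130.

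Bad, which survival kinases hold in check, and Bid, which caspase-8 activates, were the BH3-only members called higher in PIR+ cells on the deposited scale. Bad (chr19:6941861-6951899, plus strand) was 10.8, 13.8 and 15.6 in PIR+ wt and 6.9, 4.6 and 7.8 in PIR- wt. It was 10.3, 9.8 and 21.3 in PIR+ KO and 3.7, 5.8 and 6.6 in PIR- KO. As with Bcl2l1, but in the opposite direction, no PIR+ library overlapped a PIR- library on the deposited scale. Over both genotypes this held for 20.1% of tested genes. After scaling the Bad libraries overlapped (8.63 to 14.64 in PIR+, 4.49 to 9.16 in PIR-), while those of Bcl2l1 did not. On the deposited scale the log2 differences of Bad were 0.97 ± 0.33 in wild type (limma adjusted p = 0.0146) and 1.16 ± 0.33 in KO (adjusted p = 0.00556). After scaling they were 0.50 (limma adjusted p = 0.222) and 0.80 (adjusted p = 0.0528), neither called. Averaged over the genotypes, Bad was higher in PIR+ cells on both scales, 1.06 ± 0.24 (limma adjusted p = 9.62e-05) as deposited and 0.65 (adjusted p = 0.0135) after scaling. In that average 55% of tested genes were called higher and 59.6% in either direction, and 29.6% in either direction after scaling. Bad passed the filter through PIR+ libraries alone, and such passing favours genes that are high in PIR+ cells. The shares over all tested genes rest on the same filter.

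Bid (chr6:120891930-120916853, minus strand), which links death receptors to the mitochondrion once caspase-8 cuts it, was 11.4, 16.4 and 14.9 in PIR+ wt and 7.4, 6.2 and 11.6 in PIR- wt. It was 17.6, 18.6 and 22.8 in PIR+ KO and 8.5, 9.8 and 11.8 in PIR- KO. The wild-type groups touched, PIR+ wt 1 lying under PIR- wt 3. The KO groups did not overlap, which held for 39.1% of tested genes in KO. The differences were 0.72 ± 0.29 (limma adjusted p = 0.0371) in wild type and 0.91 ± 0.29 (adjusted p = 0.0148) in KO, and after scaling 0.25 (adjusted p = 0.49) and 0.53 (adjusted p = 0.133). Neither Bad nor Bid had a p under 0.05 for the wild-type comparison in the authors' deposited table (0.275 and 0.586).

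Single libraries decided some of these calls. In wild type, Bad was not called without PIR+ wt 3 (limma adjusted p = 0.0774) or PIR- wt 2 (0.0839), and Bid not without PIR+ wt 2 (0.134), PIR+ wt 3 (0.104), PIR- wt 1 (0.106) or PIR- wt 2 (0.171). In KO, without PIR+ KO 3 or PIR- KO 1, Bad gave limma adjusted p = 0.13 or 0.0587 and Bid 0.0854 or 0.0766.

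In all, 3 of the 4 tested members were called in wild type, where 44.4% of all tested genes were, and 4 of 4 in KO, where 25.5% were. Higher calls made up 40.6% and 22.5% of tested genes, so Bad and Bid (and Mcl1 in KO) moved as many other genes did. After scaling 1 of 4 was called in each genotype, Bcl2l1 both times, against 22.6% and 15.6% of tested genes. The median log2 difference of the 4 was 0.56 in wild type and 0.84 in KO, beside 0.51 and 0.39 over all tested genes. Bad is among the 4 through PIR+ libraries alone, and Bcl2l1 through the PIR- libraries and PIR+ KO 3. These counts and medians thus do not describe the family.

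**Figure D2:**
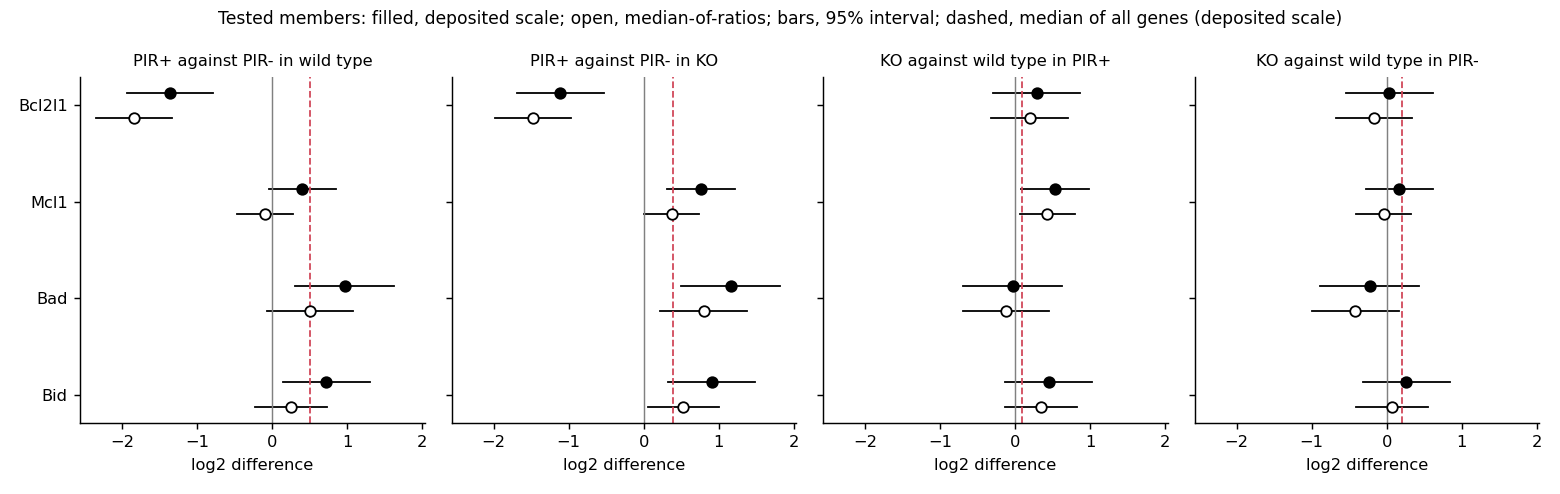
Log2 difference (horizontal axis) of the 4 tested genes in the 4 comparisons, on the deposited scale (filled) and after median-of-ratios scaling (open), with 95% intervals; the dashed line is the median of all tested genes. In the 2 PIR comparisons Bcl2l1 lies left of 0 on both scales, from -1.84 to -1.11, while the scaled intervals of Bad and Bid in wild type include 0.

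Bcl2l11 (chr2:128126038-128162547, plus strand) encodes Bim, a BH3-only protein that binds all the survival proteins. It was 8.2, 3.9 and 5.4 in PIR+ wt, 4.2, 7.7 and 7.0 in PIR- wt, 7.3, 4.4 and 6.8 in PIR+ KO and 7.4, 6.3 and 8.1 in PIR- KO. The 4 ranges overlapped, and the subsets differed by -0.17 on the log2 scale (exact two-sided permutation p = 0.398, 6 against 6). After scaling, Bcl2l11 was lower in PIR+ libraries by -0.56 (exact permutation p = 0.0195), so whether it passes depends on the scale. Bbc3 (Puma) and Pmaip1 (Noxa), which p53 is known to induce, were nearly absent, each with an estimated 8 molecules over all 12 libraries. Bbc3 was above 0 in 5 libraries and at most 1.5, and Pmaip1 above 0 in 7 and at most 1.2, which is under the value of 3 molecules in every library. A difference between groups was not detectable for these 2 genes at this depth.

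FoxO transcription factors are known to act at Bcl2l11, and Foxo1 differed strongly between the subsets (2.4 to 6.1 in PIR+ and 25.4 to 44.8 in PIR- libraries), so the sequence just before the Bcl2l11 start is shown, and that before Bad, a BH3-only member that was higher in PIR+ cells, beside it. Both are the 250 bases before the start in RefSeq on GRCm38.p6, plus strand, at chr2:128125788-128126037 for Bcl2l11 and chr19:6941611-6941860 for Bad. Capitals mark the FOXO letters GTAAACA.
Bcl2l11: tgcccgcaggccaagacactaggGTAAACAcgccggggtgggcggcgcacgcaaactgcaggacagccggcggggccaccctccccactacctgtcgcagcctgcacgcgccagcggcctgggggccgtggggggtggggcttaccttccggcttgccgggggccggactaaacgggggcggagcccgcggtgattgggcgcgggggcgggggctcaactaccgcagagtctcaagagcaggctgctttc
Bad: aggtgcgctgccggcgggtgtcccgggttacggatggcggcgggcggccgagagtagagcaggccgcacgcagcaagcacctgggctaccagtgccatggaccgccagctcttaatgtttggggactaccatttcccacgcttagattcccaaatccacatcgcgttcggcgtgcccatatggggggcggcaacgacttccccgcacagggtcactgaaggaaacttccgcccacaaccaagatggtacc
The Bcl2l11 window is 72% G and C with 24 CpG pairs, and that of Bad 62.8% with 21, where the median of 27025 promoter windows is 52%. RefSeq promoters were matched for 9 of the 10 members. Searched on both strands, GTAAACA was found in 1 of these 9 (Bcl2l11) and in 3.1% of all promoters. The RUNX letters TGTGGT were found in 1 (Bak1) and in 14.2% of all promoters, and the STAT letters TTCNNNGAA in none of the 9 and in 7.2%. All 250 bases of the Bak1 window, and of that of Bcl2l1, lie in exons annotated for the same gene in GENCODE M21, so they are not purely upstream sequence. Such a match describes the letters in this window and is not a binding site.

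The balance between messages within 1 library does not depend on how libraries were scaled. Mcl1 over Bcl2l1 was 6.12, 3.58 and 3.85 in PIR+ wt, 0.732, 1.91 and 1.17 in PIR- wt, 7.54, 5.23 and 3.45 in PIR+ KO and 1.33, 1.5 and 1.11 in PIR- KO. The lowest PIR+ library (3.45) was above the highest PIR- library (1.91). Bid over Bcl2l1 was 1.5 to 2.89 in PIR+ and 0.31 to 0.53 in PIR- libraries, and Bad over Bcl2l1 was 1.11 to 1.93 and 0.189 to 0.347. With Bcl2l1 now as the numerator, Bcl2l1 over Bax was 1 to 2.03 in PIR+ and 2.68 to 6.46 in PIR- libraries, and Bcl2l1 over Bak1 was 0.629 to 1.54 and 2.65 to 5.69. All 5 ratios separated the 6 PIR+ from the 6 PIR- libraries, and all 5 contain Bcl2l1. Bcl2l1 alone already separated these libraries, so the 5 ratios are not independent of its own difference. Of the ratios without Bcl2l1, Bcl2l11 over Mcl1 was 0.0957 to 0.235 in PIR+ and 0.227 to 0.285 in PIR- libraries, with a narrow overlap. Bid over Bad was 0.955 to 1.9 and 1.07 to 2.3, with a wide one. A ratio shows that 2 messages changed unequally, not which of them changed.

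**Figure D3:**
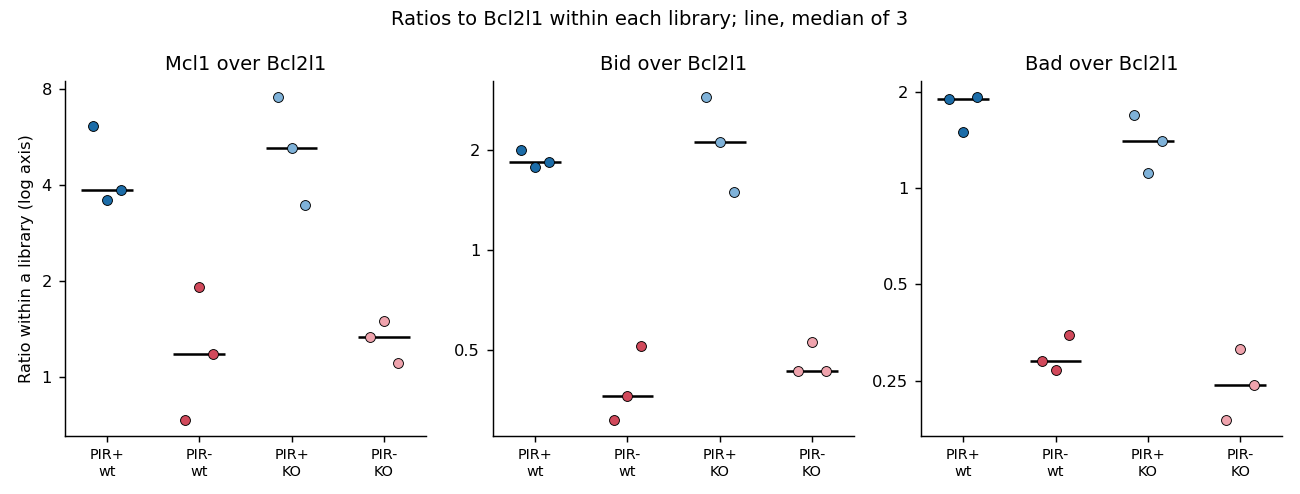
Ratio of Mcl1, Bid and Bad to Bcl2l1 within each of the 12 libraries (vertical axis, log scale, no unit), by group; points are libraries and lines the median of 3. Mcl1 over Bcl2l1 is at least 3.45 in PIR+ libraries and at most 1.91 in PIR- libraries.

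No member passed the threshold between KO and wild type in either subset. In PIR+ cells limma called 0 of the 4 tested members, where 0.903% of tested genes were called (1.01% after scaling, again 0 of 4), and 1, Mcl1, had an unadjusted p under 0.05 on both scales. Mcl1 was 0.53 ± 0.23 higher on the log2 scale in PIR+ KO than in PIR+ wt (95% interval 0.08 to 0.98, limma adjusted p = 0.544). The libraries did not overlap, 31.2 to 34.9 in wild type and 46.0 to 52.5 in KO, which held for 11.1% of tested genes, and 3 against 3 libraries cannot reach an exact permutation p under 0.1. After scaling the Mcl1 difference was 0.43 (limma adjusted p = 0.378). In the authors' deposited table the p of Mcl1 for PIR+ wt against PIR+ KO was 0.0505, and those of the other 7 members with a value were 0.284 to 0.93. Bid too did not overlap between PIR+ wt (11.4 to 16.4) and PIR+ KO (17.6 to 22.8), with a log2 difference of 0.45 (95% interval -0.13 to 1.03, limma adjusted p = 0.911), and 0.35 after scaling (adjusted p = 0.72).

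In PIR- cells limma also called 0 of 4, none with an unadjusted p under 0.05, where 1.3% of tested genes were called (1.7% after scaling, again 0 of 4). The KO differences there were 0.04 for Bcl2l1 (95% interval -0.54 to 0.61), 0.17 for Mcl1 (-0.28 to 0.62), -0.23 for Bad (-0.89 to 0.43) and 0.26 for Bid (-0.32 to 0.84). After scaling they were -0.17, -0.04, -0.42 and 0.07 in the same order, so Bcl2l1 and Mcl1 change sign with the scale. Intervals of this width do not show equal levels. Averaged over the subsets, limma called 0 of 4 (1.78% of tested genes, 2.62% after scaling), with Mcl1 alone at an unadjusted p under 0.05. Its averaged difference was 0.35 (limma adjusted p = 0.288), and 0.20 after scaling (adjusted p = 0.573), where 0 of 4 had an unadjusted p under 0.05. Whether the KO effect differed between subsets was tested directly: limma called 0 of 4, with 0 at an unadjusted p under 0.05, against 0.572% of tested genes (0.749% after scaling, again 0 of 4), and the largest difference was that of Mcl1 (0.36, 95% interval -0.27 to 1, adjusted p = 0.982), which was 0.47 after scaling (adjusted p = 0.618). For all 10 members, exact permutation tests of 6 KO against 6 wild-type libraries gave p of 0.143 or more on the deposited scale. After scaling the lowest p was 0.0974 (exact permutation), for Bcl2, with a log2 difference of -0.67.

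The steps around the family were followed with 8 lists of 90 genes in all. A gene could pass the filter through PIR+ or PIR- libraries alone. Tnfrsf1a, Casp6 and Jak3 passed it through PIR+ libraries alone, and Foxo1 through PIR- libraries alone. Counts and medians over tested genes are thus not those of a whole list. Of 7 anti-apoptotic relatives none passed the filter, and 5 were above 0 anywhere. The Bcl2a1 copies are nearly identical and were at most 1.1, so the split of their reads is uncertain. Of 9 relatives of the pore formers and BH3-only genes 3 were tested, and Bcl2l13 (0.77, limma adjusted p = 0.0216) and Bnip3l (0.91, adjusted p = 0.00186), both known as mitophagy receptors, were higher in PIR+ wt, neither after scaling. The median of the 3 was 0.77 in wild type and 0.12 in KO.

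Downstream of the mitochondrion, 8 of 14 apoptosome and caspase genes were tested. Casp6, an executioner caspase, was 8.8 to 14.6 in PIR+ wt and 2.3 to 7.4 in PIR- wt (1.2 ± 0.38, limma adjusted p = 0.00763), and Htra2, a released protease, was higher in PIR+ cells of both genotypes (0.72 in KO, adjusted p = 0.0338). Neither was called after scaling, and Parp1, a caspase substrate chosen after its values were seen, was then the 1 called gene, lower in PIR+ wt (-0.93, limma adjusted p = 5.09e-08) and KO (-0.86, adjusted p = 3.31e-07). The list median was 0.47 in wild type and 0.49 in KO, beside 0.51 and 0.39 over all genes.

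Among inhibitor of apoptosis genes, 4 of 8 were tested. Naip5, a sensor of bacterial proteins that carries the repeats of this family, was 9.97 on average in PIR+ wt and 33.9 to 51.2 in PIR- wt, and 3.6 to 11.3 against 20.2 to 73.1 in KO. It was lower in PIR+ cells by -2.07 (limma adjusted p = 9.26e-09) in wild type and -2.72 (adjusted p = 5.92e-13) in KO, on both scales, although reads of the Naip copies may be confused. Xiap, which binds caspases, was higher in PIR+ KO than in PIR- KO (0.80, limma adjusted p = 0.0153), but not after scaling (adjusted p = 0.184). The median of the 4 was 0.02 in wild type and 0.06 in KO.

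The death receptor route, which meets the family at Bid, was called higher in PIR+ cells for 2 of its 3 tested genes, of 11 listed, in each genotype, where 40.6% (wild type) and 22.5% (KO) of all tested genes were called higher. Tnfrsf1a, the main receptor for tumour necrosis factor, was 14.6 to 17.8 in PIR+ wt and 0 to 2.7 in PIR- wt, and 15.2 to 20.6 against 1.5 to 4.2 in KO. Its log2 differences were 3.17 ± 0.39 (limma adjusted p = 4.69e-11) and 2.23 (adjusted p = 2.81e-06), called on both scales. Casp8, the caspase that cuts Bid, was 18.4 to 26.1 in PIR+ wt and 6.2 to 8.7 in PIR- wt (1.36 ± 0.29, limma adjusted p = 7.91e-05), and it was called in KO on the deposited scale (0.96, adjusted p = 0.0082) but not after scaling (adjusted p = 0.117). In wild type Casp8 was not called without the 5 globin-rich libraries (limma adjusted p = 0.0812). The list median was 1.36 in wild type and 0.96 in KO. Tnfrsf1a passed the filter through PIR+ libraries alone, and Casp8 through the PIR+ libraries and PIR- KO 2 (13). Such passing favours genes that are high in PIR+ cells, so count and median over these 3 do not describe the 11 listed. The shares over all tested genes rest on the same filter.

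**Figure D4:**
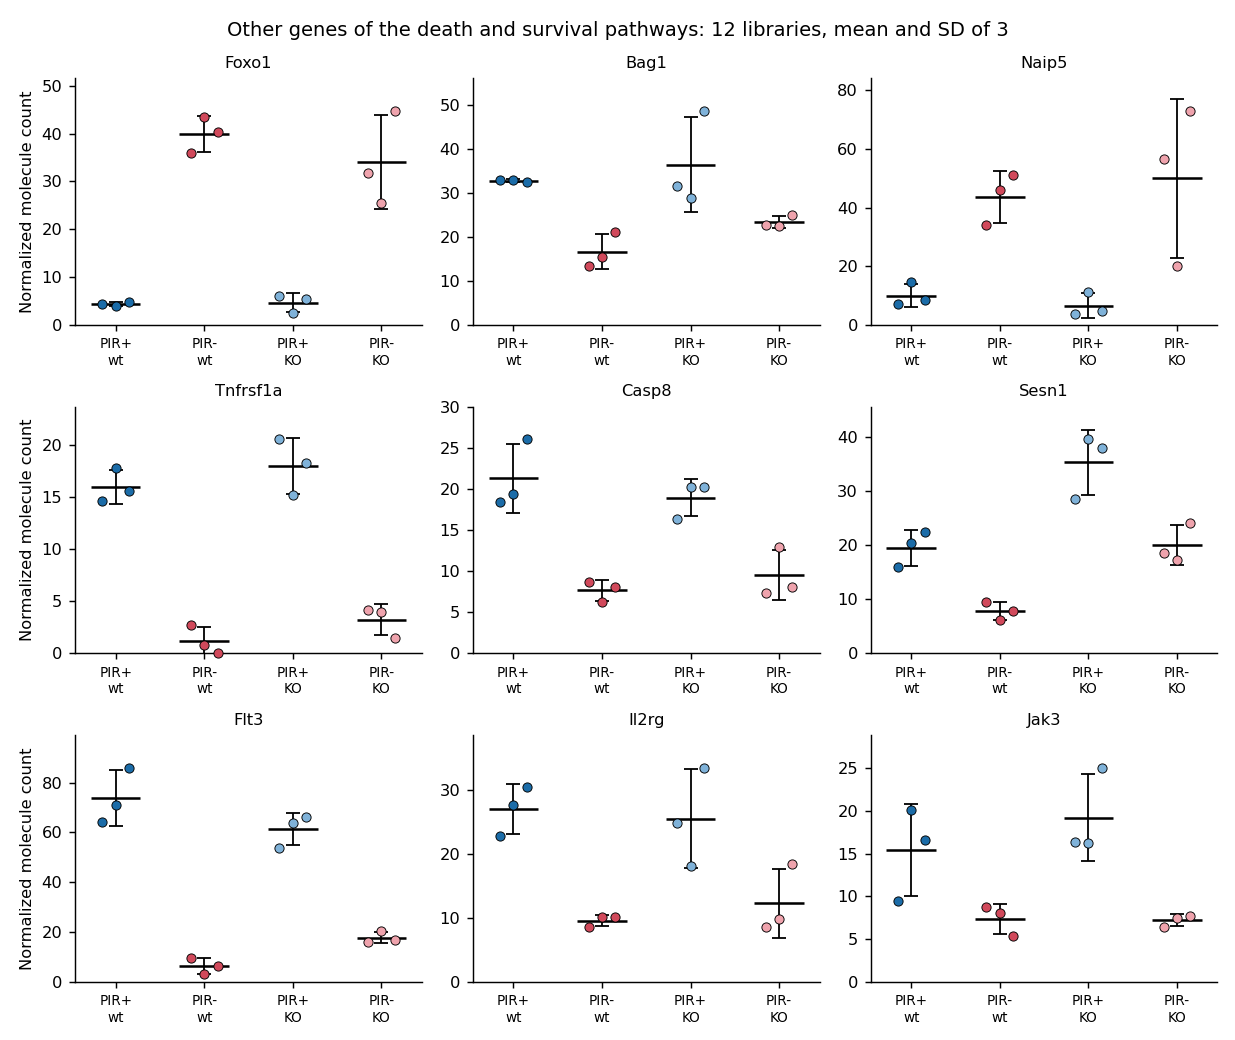
Normalized molecule count (vertical axis, linear, from 0) in the 12 libraries of the 9 pathway genes called on both scales in the comparison that named them; points are libraries, and bars are the mean and SD of 3, with the SD cut off at 0. Foxo1 and Naip5 are low in all PIR+ libraries, Tnfrsf1a is at most 4.2 in PIR- libraries, and Sesn1 is 6.2 to 9.5 in PIR- wt and 17.3 to 24.2 in PIR- KO.

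Of 12 genes of p53 and its targets 3 were tested. Sesn1, a stress-response target of p53 and FoxO factors, was called between KO and wild type in PIR- cells, as was Flt3, the 2 list genes for which this held. It was 6.2 to 9.5 in PIR- wt and 17.3 to 24.2 in PIR- KO, a difference of 1.25 ± 0.26 (limma adjusted p = 0.00108) that was also called after scaling (adjusted p = 0.00517). In PIR+ cells it was 15.9 to 22.4 in wild type and 28.5 to 39.7 in KO (0.82, limma adjusted p = 0.16). With 1 PIR- wt library left, the PIR- difference was 1.03 without the 5 globin-rich libraries (limma adjusted p = 0.233) and 1.03 in the 6 libraries with matching fields (adjusted p = 0.107), neither called. Trp53 itself was 16.3 to 42.7 over the 12 libraries, and Ccng1 was higher in PIR+ wt (0.88, limma adjusted p = 0.0104), not after scaling. The death targets Bbc3 and Pmaip1 gave too few molecules to be read beside Sesn1.

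Among 19 regulators of the family 16 were tested. Foxo1 was 3.9 to 4.7 in PIR+ wt and 36 to 43.4 in PIR- wt, and 2.4 to 6.1 against 25.4 to 44.8 in KO, lower in PIR+ cells by -2.94 ± 0.29 (limma adjusted p = 4.54e-15) and -2.68 (adjusted p = 5.92e-13). It was called under all 24 alternatives in each genotype, while Foxo3 was listed at 0 in all 12 libraries. In wild type 8 of the 16 were called higher, beside 40.6% of all tested genes, among them Bag1, a partner of Bcl2 (0.97, limma adjusted p = 0.000741), Vdac2, an outer-membrane channel that binds Bak1 (0.85, adjusted p = 0.000586), and Huwe1, a ubiquitin ligase of Mcl1 (0.82, adjusted p = 0.00348). After scaling 1 of the 8, Bag1, was still called higher (limma adjusted p = 0.0498). Of the 16 tested, 3 were then called lower, Foxo1, Atf4 and Ywhaz, none of them among those 8. The list median was 0.53 in wild type and 0.23 in KO.

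Upstream, 7 of 10 genes of the cytokine survival signal were tested. Il2rg, the shared chain of the interleukin-7 receptor, was 22.8 to 30.5 in PIR+ wt and 8.5 to 10.1 in PIR- wt (1.4, limma adjusted p = 2.03e-05). Jak3, the kinase bound to it, was 16.2 to 25.1 in PIR+ KO and 6.4 to 7.7 in PIR- KO (1.28, adjusted p = 0.000769 by limma). Both were called after scaling as well. Il7r itself went the other way in KO, 9.7 to 16 in PIR+ and 16.1 to 24.4 in PIR- libraries (-0.73, limma adjusted p = 0.0332), and -1.11 after scaling (adjusted p = 0.000439). The deposited-scale call of Il7r was lost without the 5 globin-rich libraries (-0.47, limma adjusted p = 0.416), in the 6 with matching fields (-0.27, adjusted p = 0.604) and without PIR+ KO 1 (0.159), PIR+ KO 2 (0.0641), PIR- KO 1 (0.15) or PIR- KO 3 (0.0749). In wild type Il7r (-0.65, limma adjusted p = 0.031) and Jak1, the other kinase of that receptor (-0.70, adjusted p = 0.00644), were lower in PIR+ cells after scaling and not on the deposited scale. Il7r and Jak1 were chosen after their values were seen. On the deposited scale 5 of the 7 were called higher in wild type and 4 in KO, beside 40.6% and 22.5% of all tested genes, and the list median was 0.93 and 0.89 (log2). Flt3, a receptor of early progenitors, was higher in PIR+ wt by 3.45 (limma adjusted p = 3.31e-23), and in PIR- cells it was higher in KO than in wild type by 1.46 (adjusted p = 2.05e-05), and by 0.89, not called, without the 5 globin-rich libraries (adjusted p = 0.255) and in the 6 with matching fields (adjusted p = 0.107). No list gene was called between KO and wild type in PIR+ cells.

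The genes whose levels ran most like Bcl2l1 over the 12 libraries were Prep (Pearson r = 0.929 of log2 values), Ucp2 (0.926) and Wdfy4 (0.926). Prep was 11.2, 71.9, 14.6 and 64.3 on average in PIR+ wt, PIR- wt, PIR+ KO and PIR- KO, the same order of subsets as Bcl2l1 with a wider gap. Those most like Bad were Anapc11 (r = 0.96), E2f6 (0.953) and Lamtor1 (0.951), and Anapc11 was 35.9, 18.9, 32.0 and 15.6 in the same groups. The 12 points share library sizes and the split into subsets, and no test was made of these correlations.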

How the data were processed

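RNA of 12 libraries of 100 sorted cells was primed with oligo-dT carrying a molecular barcode, with ERCC spike-in RNA added, per the labels' protocols. The authors deposited a signal per gene: molecule counts divided by 1 factor per library and rounded to 1 decimal; how the factor was made is not given in the sources used here. Between 93% and 94.2% of values under 15 lie within 0.055 of a multiple of 1 step, so whole reads were not recovered, and molecule numbers are values divided by the step. The authors also deposited p-values of DESeq2 for 2 comparisons, per the file headers, without saying whether they are adjusted. The submitters' processing notes name TopHat2, mm10 and DESeq2.

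Members and lists were chosen with earlier results of these data known. Fits used limma 3.58.1 (R 4.3.3) on log2(value + 1), with a trended prior and 4 group means, for the 4542 genes of at least 10 in at least 3 libraries. Benjamini-Hochberg adjusted p under 0.05 was called. The test was checked on simulated data. Fold changes of low genes are understated by the added 1. Tests of 6 against 6 libraries were exact permutations of mean log2(value + 1), with p not adjusted over the members. They ignored genotype when subsets were compared, and subset when genotypes were compared. All 10 members are named, with up to 4 called genes of largest difference per list and the 3 genes most like each of the 2 members with the smallest F-test p. Plots used matplotlib 3.10.9 in Python 3.11.15. Scaling, pseudocount, filter, embryonic day, replicate block, trend and left-out libraries were varied.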

Additional observations from a re-analysis of the deposited data

How the results depend on the processing

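No called result changed direction. Bcl2l1 was called in wild type under all 24 alternatives (-1.84 to -1.05 on the log2 scale) and in KO under 22 of 24. The fits without the globin-rich libraries and in the 6 with matching fields have PIR- wt 1 alone for PIR- wt. The latter also has PIR+ KO 3 alone for PIR+ KO. In wild type, 3 members were called, and 1 (Bcl2l1) after median-of-ratios scaling and after scaling to the library sum. In the fits with PIR- wt 1 alone for PIR- wt, the set of called members also differed, and Bad and Bid lost their calls. The wild-type Mcl1 difference was 0.92 on the log2 scale there, and 0.40 in the main fit. In KO, 4 members were called, 1 (Bcl2l1) after median-of-ratios scaling, 2 (Bad, Bcl2l1) after scaling to the library sum, 2 (Bad, Mcl1) in the 6 libraries with matching fields and 1 (Bad) without the globin-rich libraries. Averaged over genotypes, 4 became 2 (Bad, Bcl2l1) after median-of-ratios scaling. For KO against wild type averaged over subsets, 0 became 1 in the 6 matching libraries (Mcl1, 0.65, limma adjusted p = 0.0359). Leaving out 1 library gave 1 to 3 members in wild type (1 without PIR+ wt 3 or PIR- wt 2), 2 to 4 in KO (2 without PIR+ KO 3 or PIR- KO 1), and 4 in the average. Exact permutation tests of the subsets after scaling gave p = 0.0584 for Bcl2 (0.79), 0.398 for Mcl1 (0.14) and 0.0195 for Bcl2l11 (-0.56). The cause of these shifts was not tested. Among the other named genes, calls on the deposited scale held under all alternatives for Foxo1, Naip5, Tnfrsf1a and Flt3 in each genotype and for Bag1 and Il2rg in wild type. In wild type they held in 15 of 18 for Casp6, 21 of 24 for Vdac2, Huwe1 and Bnip3l, 20 for Ccng1 and 16 for Bcl2l13, and in KO in 16 of 24 for Htra2 and 18 for Xiap. With the filter at 2 in 3 libraries 8 members were tested.

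Over all genes, called counts were 2015 in wild type, and 1025 and 1073 after the scalings by median of ratios and by library sum, 958 in the matching and 648 in the low-globin libraries. In KO they were 1158, and 710, 725, 748 and 511. Averaged over genotypes 2706 became 1344 and 1394 after the scalings and 1315 (low globin). For KO against wild type in PIR+, 41 became 22 (matching), 24 (low globin) and 20 (no trend). In PIR- 59 became 31 (no filter), 30 (low globin), 37 (no trend) and 36 (only the groups compared). For the interaction 26 became 3 (no filter), 10 (matching), 5 (low globin) and 3 (no trend), and for the KO average 81 became 43 (no filter), 537 (matching) and 52 (no trend). Leaving out 1 library gave 1288 to 2072, 633 to 1416, 27 to 45, 33 to 87, 15 to 33, 2177 to 2829 and 48 to 138 in wild type, KO, KO against wild type in PIR+ and in PIR-, the interaction and the 2 averages.

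A replicate block changed no count of members called: 3 in wild type, 4 in KO and 0 for knockout in either subset. Over all genes it moved KO against wild type from 41 to 62 in PIR+, from 59 to 209 in PIR- and from 81 to 284 in the average. Same-numbered libraries deviated together at r = -0.106 to 0.162 over 18 pairs, against -0.125 to 0.18 for other pairs, and 4 of 12 libraries correlated best with their own number, so the numbers were not taken to pair the samples.

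Depth limits Bcl2, Bbc3 and Pmaip1 most, and members under the filter rest on 8 to 130 molecules in all.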

Other observations

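Among the relatives below the filter, Bmf, a BH3-only gene chosen after its values were seen, was 3.3 to 7.5 in PIR+ wt and 0 to 1.1 in PIR- wt, and 3 to 3.9 in PIR+ KO and 1.2 to 2.9 in PIR- KO. Its PIR+ and PIR- libraries did not overlap in either genotype, and no test was made. Such a lack of overlap held for 52% of tested genes in wild type and 39.1% in KO. Those shares are over genes that passed the filter, and the share among genes as low as Bmf was not computed. Bok, a relative of the pore formers, ran the other way in wild type, 0.6 to 0.7 in PIR+ and 1.6 to 2.3 in PIR-, and overlapped in KO (1 to 2.4 and 1.6 to 5.1), where 3 molecules are worth 1.47 to 2.33. Hrk and Bcl2l10 were listed at 0 in all 12 libraries.

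Cish and Socs1, feedback inhibitors that cytokine signals are known to induce, were also below the filter. Socs1 was 3.8 to 8.5 in PIR+ wt and 1.1 to 2.3 in PIR- wt, and 3.6 to 5.3 against 1.7 to 3.7 in KO. Cish was 0 to 1.4 in PIR+ wt and 1.1 to 3.1 in PIR- wt, and 0 to 0.5 against 1.7 to 2.9 in KO. Both are given as values, with no test.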
